A study of Mus musculus with 16 samples.

Results

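The genes examined were the nuclear genes whose symbol begins with Nduf, the names given to the subunits of mitochondrial complex I and to a group of proteins that assemble it. The family was chosen with earlier results of these data known. Within it, all genes measured here with that start to their symbol were taken, whatever their values. Where a gene had several probe sets, the one brightest on average across the 16 arrays stood for it. This gave 42 genes of 17097 measured, or 75 of 45141 probe sets. By role they were 6 core subunits, 9 accessory subunits of the matrix arm, 17 accessory subunits of the membrane arm, 7 assembly factors of the Ndufaf series, 1 pseudogene symbol (Ndufs5-ps) and 2 genes that carry the name but are not parts of complex I (Ndufa4 and Ndufa4l2). The first 3 classes and the pseudogene symbol are counted together below as 33 subunits. Some other members of the family, among them Ndufa13, Ndufb1, Ndufb6, Ndufs5 and Ndufaf7, were not analysed here, and neither were the subunits encoded by mitochondrial DNA.

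Complex I (NADH:ubiquinone oxidoreductase) takes electrons from NADH, passes them along iron-sulfur clusters in an arm that reaches into the matrix, hands them to ubiquinone, and pumps protons through an arm that lies in the inner membrane. The core subunits carry out the reaction, the accessory subunits surround and stabilise them, and assembly factors help to build the complex and are not part of the finished enzyme. Heart muscle is rich in mitochondria and expresses these genes strongly.

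RNA was taken from cardiomyocyte preparations of 16 mice, 1 array per mouse, in 4 groups of 4: male GPER KO, male intact, female GPER KO and female intact. GPER is the G protein-coupled estrogen receptor, and the labels give the genotypes as GPER-knockout and wild type and the age as 15 weeks for all mice, whereas the study's methods give a somewhat older age. The study describes the deletion as specific to cardiomyocytes, but neither the driver of the deletion nor an allele is named in the sources used here. The ventricles were digested with collagenase, strained and spun at low speed with no sorting step, so other heart cells could remain. Each mouse has its own number and is called by it below.

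Values are log2 signals, so a difference of 1 is a doubling. The 16 array medians lay between 3.47 and 3.51, and pairs of arrays correlated between 0.982 and 0.997. The Gper1 probe set was near the lower end of the signal range, with means of 2.78 in male GPER KO and 2.77 in male intact mice, and 2.79 in female GPER KO and 2.87 in female intact mice. Whether its probes lie in the deleted part is not known, so it checks no label. The 9 cardiomyocyte markers measured had group means between 12.08 and 12.13. Female intact mice 421 and 422 were singled out because of earlier results, which are not shown here. They also had the highest mean log2 signals of the subunits among female intact mice, 11.19 and 11.18. Female genotype differences of named members were therefore recomputed without them, and those that moved by over 1.5 times are given both ways. Those of Ndufv1, Ndufv2, Ndufs3 and Ndufs5-ps were not recomputed, nor were those of genes outside the Nduf family. The dependence of these values on the 2 mice is therefore not shown. Marker genes of macrophages and endothelial cells were also read. The summed linear signal of the 15 macrophage markers was 719 to 1345 in male GPER KO and 505 to 801 in male intact mice, and 611 to 800 in female GPER KO and 439 to 566 in female intact mice. All 15 were above intact in males, 7 of them called, and 14 of 15 in females, 0 called. The summed signal of the 15 endothelial markers was 1522 to 2795 in male GPER KO and 2201 to 3672 in male intact mice, and 1715 to 2643 in female GPER KO and 2047 to 2805 in female intact mice, with all 15 below intact and 0 called in both sexes. Fibroblast markers were below intact for 5 of 10 in males and 3 of 10 in females. Smooth muscle and pericyte markers were below for 4 of 6 and 5 of 6, and red blood cell markers for 1 of 3 and 3 of 3. None of these was called in either sex. Of all genes, 43.5% were below intact in males and 58.8% in females, and 0.62% and 0.281% were called. The part of these cell types in the results below was not tested. None of these preparations allows fewer cells of a type and less RNA per cell to be told apart.

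No Nduf gene passed the threshold in any comparison of genotype or sex. With limma and Benjamini-Hochberg adjustment over 17097 genes at 0.05, 0 of 42 were called between male GPER KO and male intact mice, where 0.62% of all genes were called, and 0 of 42 between female GPER KO and female intact mice, where 0.281% were. Averaged over both sexes 0 of 42 were called, against 1.36% of all genes. Before adjustment, 2 of 42 had a limma p under 0.05 in males and 8 of 42 in females, all lower in GPER KO. In either direction, 1730 of all 17097 genes had such a p in males and 2152 in females. Lower at that level were 3.06% of all genes in males and 7.53% in females. What the data hold is therefore a set of small values, which are described here by their direction, size and spread. Each p-value sets a difference against the spread between mice within groups, pooled over the 4 groups and drawn towards that of all genes.

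The subunit genes lay slightly below intact in most cases. In males 26 of 33 (78.8%) were below, with a median log2 difference of -0.037, where 43.5% of all genes were below and the median was 0.015. In females 27 of 33 (81.8%) were below, with a median of -0.061, against 58.8% and -0.021 for all genes. Averaged over the sexes, 29 of 33 (87.9%) were below, with a median of -0.052, against 50.9% and -0.002. In both sexes 21 of 33 (63.6%) were below intact, against 24.8% of all genes. Without 421 and 422 the female median was -0.059, again with 27 of 33 below. The 33 genes were read from the same arrays, so these counts are not separate observations.

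Single subunits differed by -0.17 to 0.11 in males and by -0.15 to 0.02 in females. The 95% intervals of single subunits all lay within -0.33 to 0.25 in males and within -0.29 to 0.22 in females. The median within-group SD of the subunits was 0.062, less than the 0.111 of all genes. The mean log2 signal of the 33 subunits was 11.06 to 11.13 in male GPER KO and 11.09 to 11.16 in male intact mice, which overlapped. It averaged 11.10 ± 0.029 in male GPER KO and 11.13 ± 0.031 in male intact mice (SD, n = 4 each). It was 11.07 to 11.12 in female GPER KO and 11.13 to 11.19 in female intact mice, which did not overlap, and averaged 11.10 ± 0.022 in female GPER KO and 11.17 ± 0.026 in female intact mice (SD, n = 4 each). These signals sat between the 98.4th and 99.9th percentile of all probe sets on the array, near the top of its range, and whether differences are compressed there was not tested.

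**Figure D1:**
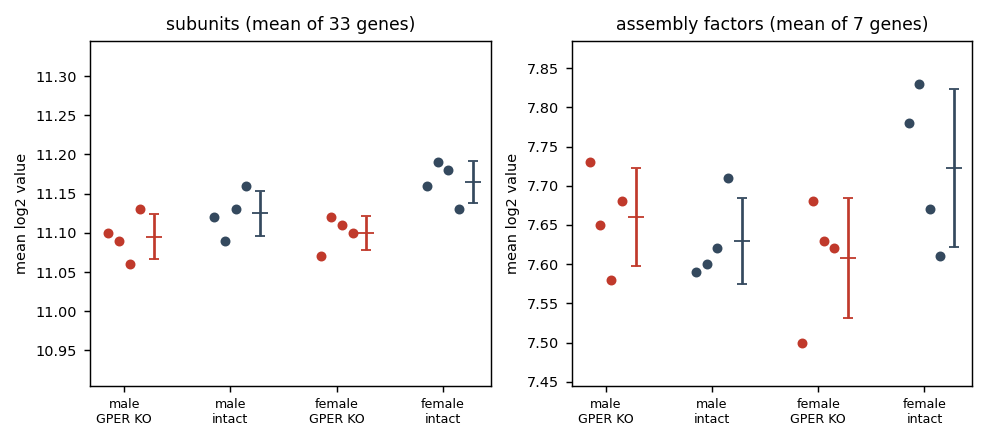
Mean log2 signal of the 33 subunits (left) and 7 assembly factors (right) on each of 16 arrays. Each point is 1 mouse and the bars are mean and SD of 4. For the subunits the female GPER KO arrays (11.07 to 11.12) lie below the female intact ones (11.13 to 11.19), and for the assembly factors all groups overlap.

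**Figure D2:**
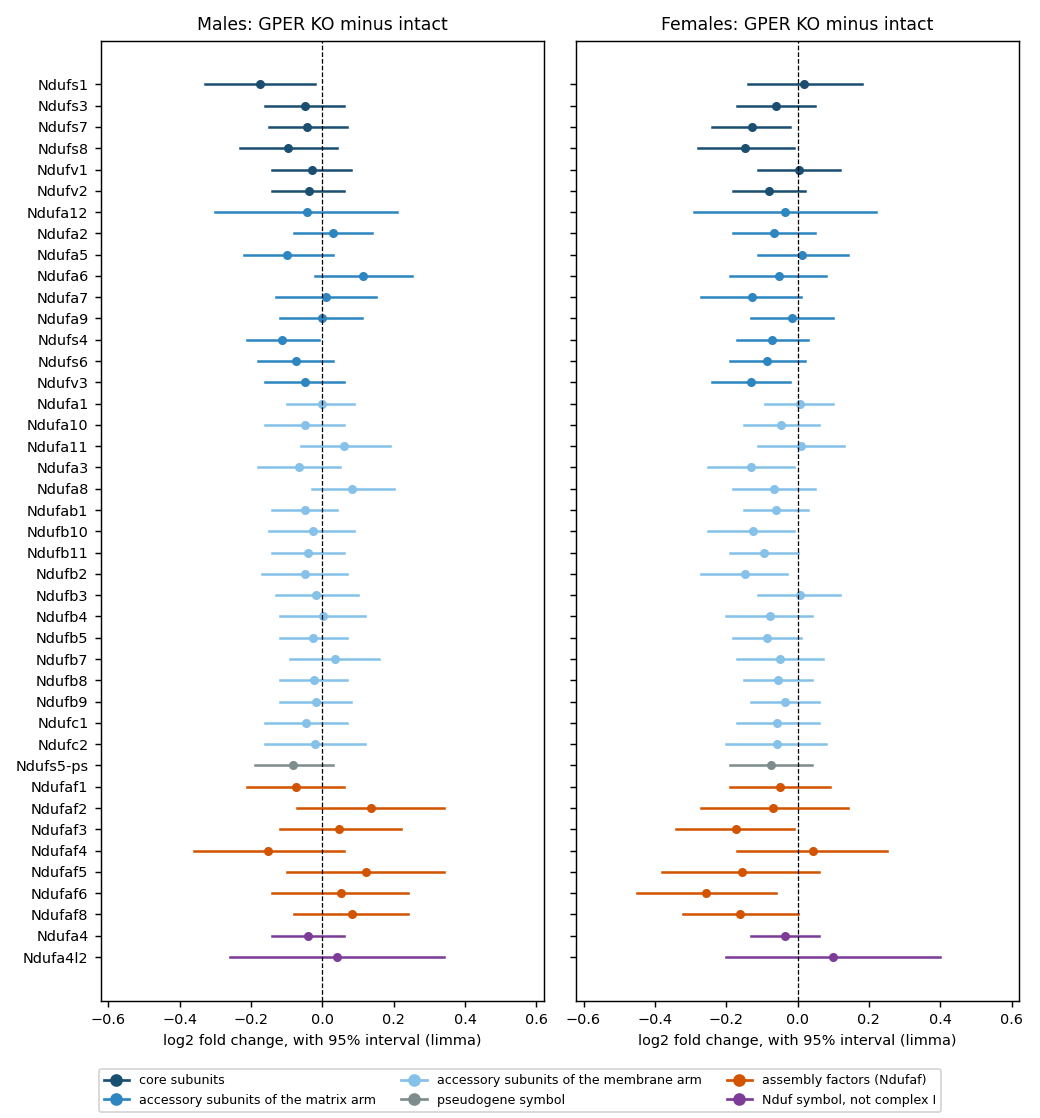
Log2 fold change, GPER KO minus intact, with its 95% interval from limma for each of the 42 genes, in males (left panel) and females (right panel), coloured by role. No gene passed the threshold. In males 26 of 33 subunits and in females 27 of 33 lie below 0.

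The core subunits include the parts that hold the electron carriers. All 6 were below intact in males, with a median of -0.046, and 4 of 6 in females, with a median of -0.070. Ndufs1, the largest subunit of the matrix arm and holder of several iron-sulfur clusters, had log2 values of 10.78, 10.85, 10.73 and 10.63 in male GPER KO mice and 11.12, 10.93, 10.88 and 10.77 in male intact mice. Male intact mouse 430 was high and the groups overlapped through mice 432 and 453. The difference was -0.17 (SE 0.08, unadjusted p = 0.0339, limma adjusted p = 0.432), and it was -0.11 without mouse 430. In females Ndufs1 averaged 10.83 ± 0.024 in GPER KO and 10.81 ± 0.121 in intact mice (SD, n = 4 each), a difference of 0.019 (limma adjusted p = 0.945), or -0.081 without 421 and 422.

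Ndufs8, which carries iron-sulfur clusters close to the ubiquinone site, had a lower mean in GPER KO of both sexes on its brightest probe set. The groups overlapped in both sexes. It averaged 10.84 ± 0.105 in male GPER KO and 10.93 ± 0.104 in male intact mice, and 10.81 ± 0.051 in female GPER KO and 10.95 ± 0.067 in female intact mice (SD, n = 4 each). Its difference averaged over the sexes, -0.12 (SE 0.05), had the largest size among the 33 subunits and an adjusted p of 0.271 by limma. Its other probe sets did not share a direction in males, at -0.061, 0.021 and 0.011. In females they differed by -0.21, -0.086 and -0.16. Ndufs7, its neighbour in that part of the enzyme, had 10.74, 10.67, 10.80 and 10.81 in female GPER KO and 10.84, 10.93, 10.93 and 10.82 in female intact mice. The female groups did not overlap, and the difference was -0.13 (limma adjusted p = 0.324), or -0.078 without 421 and 422. In males it was -0.042. Ndufv1, which binds NADH and the flavin, differed by -0.030 in males and 0.004 in females, Ndufv2 by -0.037 and -0.079, and Ndufs3 by -0.050 and -0.061.

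Among the accessory subunits of the matrix arm, 6 of 9 were below intact in males and 8 of 9 in females, with medians of -0.044 and -0.067. Ndufv3, an accessory protein at the NADH-binding end, had 11.63, 11.71, 11.70 and 11.67 in female GPER KO mice and 11.74, 11.85, 11.86 and 11.79 in female intact mice. The female groups did not overlap, and the difference was -0.13 (SE 0.05, limma adjusted p = 0.306). Without 421 and 422 it was -0.085. In males the ranges overlapped, at 11.69 to 11.85 in GPER KO and 11.77 to 11.89 in intact mice.

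Ndufa6, a small LYR-motif protein of the matrix arm, ran the other way in males. Its values were 10.29, 10.36, 10.39 and 10.45 in male GPER KO mice and 10.18, 10.25, 10.28 and 10.31 in male intact mice, so that 3 of 4 GPER KO arrays were above all intact arrays. The difference was 0.11 (SE 0.06, limma adjusted p = 0.602). In females it was -0.052, or 0.013 without 421 and 422. Ndufa5, a subunit near the ubiquinone site, averaged 10.94 ± 0.063 in male GPER KO and 11.04 ± 0.046 in male intact mice (SD, n = 4 each), a difference of -0.098 (limma adjusted p = 0.638), and differed by 0.013 in females, or -0.061 without 421 and 422.

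The accessory subunits of the membrane arm had 13 of 17 below intact in males and 14 of 17 in females, with medians of -0.024 and -0.058. Ndufb2 (chr6:39592565-39599843, GRCm38.p6) had the largest size of difference among subunits in females after Ndufs8, with the smallest p of the 33. It had 10.79, 10.90, 10.93 and 10.87 in female GPER KO mice and 10.95, 11.03, 11.13 and 10.96 in female intact mice, with no overlap. The difference was -0.15 (SE 0.06, limma adjusted p = 0.295), and -0.086 without 421 and 422. In males it was -0.050, with overlap.

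Ndufa3 and Ndufb11 also did not overlap in females. Ndufa3 was 11.93 to 12.02 in female GPER KO and 12.03 to 12.27 in female intact mice, and Ndufb11 was 11.67 to 11.78 in female GPER KO and 11.78 to 11.85 in female intact mice, where the values that look equal differ beyond the second decimal. The Ndufa3 difference was -0.13, and -0.062 without 421 and 422 or -0.077 without 422 alone. With Ndufb2, Ndufv3 and Ndufs7 they made 5 of 42 genes whose female GPER KO arrays were all below the intact ones, where 3.73% of all genes were so. In males 0 of 42 were, against 1.97% of all genes. Above the intact ones without overlap were 0 of 42 in either sex, where 334 of 17097 genes were in females and 725 in males. Ndufa8, which has paired cysteine motifs, and Ndufa11 were among the few above intact in males, by 0.082 and 0.062, with adjusted p-values of 0.675 and 0.799 by limma.

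**Figure D3:**
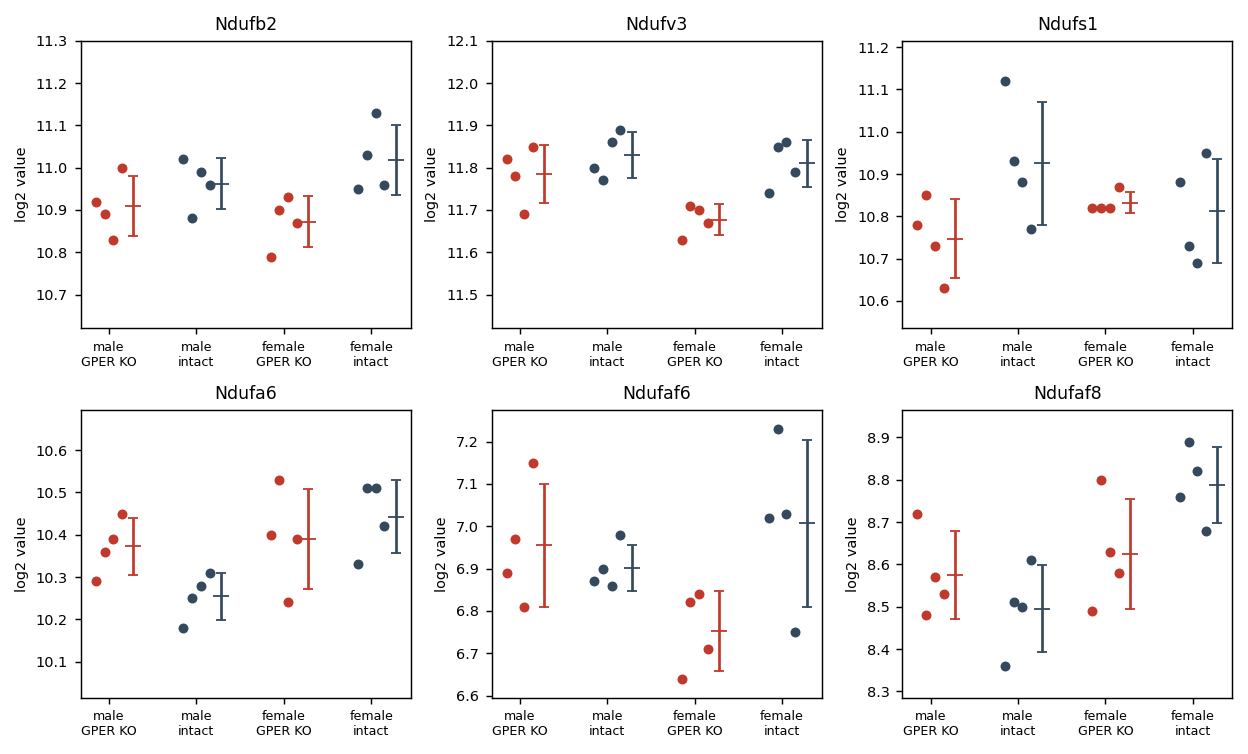
Log2 signal of Ndufb2, Ndufv3, Ndufs1, Ndufa6, Ndufaf6 and Ndufaf8 on each array. Each point is 1 mouse, the bars are mean and SD of 4, and all panels span the same log2 range. Ndufb2 and Ndufv3 separate female GPER KO from female intact mice, while male groups overlap for all 6 genes.

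Ndufs4, an accessory subunit whose loss in mice gives a fatal disease of the brain, was the one gene with a called probe set. It lies at chr13:114287795-114388094 (GRCm38.p6, RefSeq) and has 3 probe sets. On the brightest it had 9.64, 9.58, 9.53 and 9.51 in male GPER KO and 9.65, 9.64, 9.68 and 9.75 in male intact mice. The female values were 9.66, 9.76, 9.66 and 9.67 in GPER KO and 9.73, 9.81, 9.75 and 9.76 in intact mice. The differences were -0.11 in males (SE 0.05, limma adjusted p = 0.413), -0.071 in females and -0.093 averaged over both (limma adjusted p = 0.255).

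The second probe set showed a larger difference at a lower signal. It had 5.17, 5.05, 4.76 and 4.87 in male GPER KO and 5.32, 5.30, 5.27 and 5.56 in male intact mice, and 4.85, 5.20, 4.94 and 4.98 in female GPER KO and 5.42, 5.81, 5.19 and 5.26 in female intact mice. All male GPER KO arrays were below all male intact arrays, and in females only GPER KO mouse 419 reached an intact value, that of mouse 422. The difference was -0.40 in males and -0.43 in females, and -0.41 averaged over both (SE 0.09, 95% interval -0.60 to -0.23). That average, 0.751-fold, was called by limma with an adjusted p of 0.0363 over all 45141 probe sets, of which 0.817% were called. Of the 75 Nduf probe sets it was the only one called, and within either sex alone it was not (adjusted p = 0.277 in males and 0.248 in females). It was picked out after its values were seen.

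The call rested on the full set of arrays. It was lost when any of 11 arrays was left out, although the difference stayed between -0.45 and -0.35 over all 16 omissions. The adjusted p by limma was 0.0596 without male GPER KO mouse 432, 0.0745 without 444 and 0.0684 without 451. It was 0.0614 without male intact mouse 430, 0.0608 without 433, 0.0582 without 452 and 0.0760 without 453. It was 0.0809 without female GPER KO mouse 417, 0.0812 without 426 and 0.0751 without 427, and 0.0683 without female intact mouse 418. The call was kept without 421 and 422 together (-0.37, adjusted p = 0.0422). The third Ndufs4 probe set had group means of 2.40 to 2.50 and differed by 0.07 (adjusted p = 0.773). Where on the transcripts each probe set lies was not examined here.

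**Figure D4:**
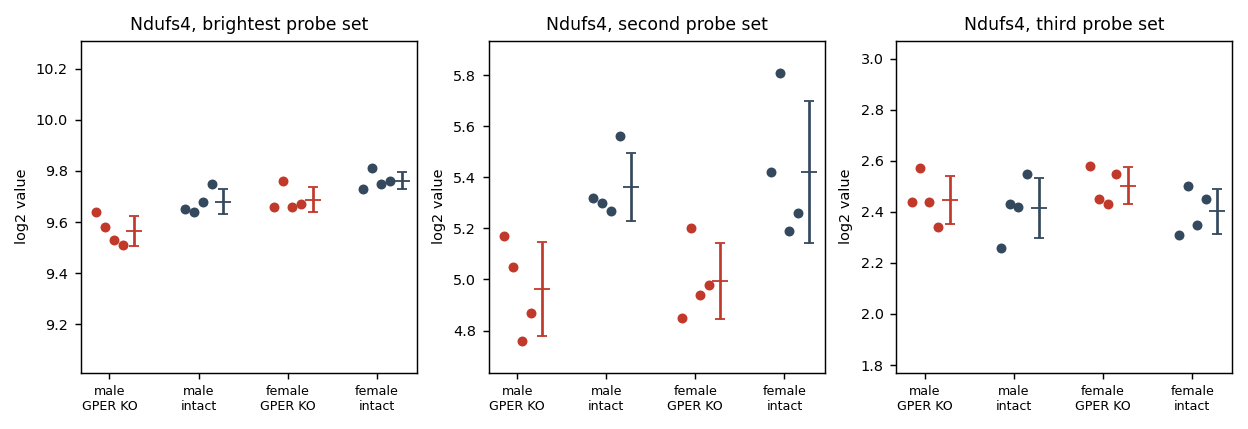
Log2 signal of the 3 Ndufs4 probe sets on each array, the brightest at left and all panels spanning the same log2 range. Each point is 1 mouse and the bars are mean and SD of 4. On the second the male groups do not overlap (4.76 to 5.17 in GPER KO, 5.27 to 5.56 in intact) and the other 2 probe sets differ by less.

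Ndufs5-ps, a pseudogene symbol whose probe set could also read the near-identical Ndufs5, differed by -0.082 in males and -0.075 in females, and its source gene is uncertain. Of the 42 genes, 22 had several probe sets, and those of 9 genes differed in sign between each other in males and those of 6 genes in females. Over all 75 probe sets, 50 were below intact in males and 63 in females.

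The mean log2 signal of the 7 assembly factors was 7.66 ± 0.064 in male GPER KO and 7.63 ± 0.056 in male intact mice. It was 7.61 ± 0.078 in female GPER KO and 7.72 ± 0.103 in female intact mice (SD, n = 4 each). Of the 7, 5 were above intact in males (28.6% below), with a median of 0.052. Of all 17097 genes, 9654 were above intact in males and 43.5% were below. In females 6 were below intact (85.7%), with a median of -0.156, where 58.8% of all genes were. Without 421 and 422 the female median was -0.094. The difference between the 2 genotype effects, male minus female, had a median of 0.222 for the assembly factors and 0.037 for the subunits, where the median of all genes was 0.042. Without 421 and 422 these were 0.176 and 0.012. None of the 42 genes was called in that comparison, in which 0% of all genes were (smallest adjusted p of a Nduf gene 0.427 by limma). Before adjustment, 2 of 42, Ndufaf6 and Ndufaf8, had a limma p under 0.05, both higher, where 6.83% of all genes were higher. In either direction 1875 of 17097 genes had such a p. Assembly factors varied more between mice than subunits, with a median within-group SD of 0.134 against 0.062. Their mean signal overlapped in both sexes, at 7.58 to 7.73 in male GPER KO and 7.59 to 7.71 in male intact mice, and 7.50 to 7.68 in female GPER KO and 7.61 to 7.83 in female intact mice.

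Ndufaf6 (chr4:11048991-11076237, GRCm38.p6), needed early in assembly, had 6.89, 6.97, 6.81 and 7.15 in male GPER KO mice and 6.87, 6.90, 6.86 and 6.98 in male intact mice. In females it had 6.64, 6.82, 6.84 and 6.71 in GPER KO mice and 7.02, 7.23, 7.03 and 6.75 in intact mice. Intact mouse 425 was low and made the female groups overlap. The difference was 0.052 in males and -0.26 in females (SE 0.09, limma adjusted p = 0.260), and the female value was -0.13 without 421 and 422 and -0.34 without 425. The difference between the sexes was 0.31 (SE 0.13, limma adjusted p = 0.427), or 0.19 without 421 and 422.

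Ndufaf8 (chr11:120098934-120100424, GRCm38.p6), known from human cells as a partner that stabilises Ndufaf5, differed by 0.082 in males and -0.16 in females, 0.24 apart (SE 0.11, limma adjusted p = 0.428). Without 421 and 422 the female value was -0.094. Ndufaf5, which in human cells hydroxylates an arginine of Ndufs7, differed by 0.12 in males and -0.16 in females, or -0.070 in females without 421 and 422. Ndufaf3 differed by 0.048 and -0.17, with female values of 7.58 to 7.76 in GPER KO and 7.71 to 8.02 in intact mice. Its partner Ndufaf4, which works with it on the part of the enzyme that binds ubiquinone, had the opposite signs, at -0.15 in males and 0.042 in females, but the female value was -0.12 without 421 and 422. Ndufaf2, which helps to add the NADH-binding end, differed by 0.13 in males and -0.068 in females (0.062 in males without male intact mouse 433, and 0.008 in females without 421 and 422), and Ndufaf1, which helps to build the membrane arm, by -0.074 and -0.050. The difference between subunit and assembly factor means on an array was 3.37 to 3.48 in male GPER KO and 3.45 to 3.53 in male intact mice, and 3.44 to 3.57 in female GPER KO and 3.35 to 3.52 in female intact mice, with overlap in both sexes.

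**Figure D5:**
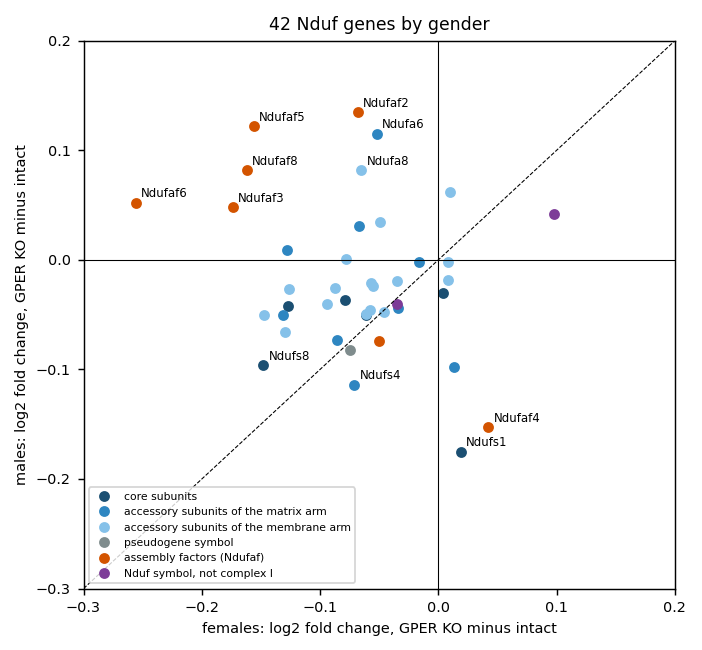
Effect of genotype (GPER KO minus intact, log2) for each of the 42 genes, in males on the vertical axis and in females on the horizontal axis, coloured by role, with the line of equal values dashed. Of the assembly factors 5 of 7 lie above 0 for males and below 0 for females, and 21 of 33 subunits lie below 0 for both.

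Complex I also has assembly factors under other names, of which 12 were measured. In males 6 of 12 were below intact (median -0.012), and in females 11 of 12 (median -0.106), with 0 called. Ecsit, which acts in the membrane arm assembly complex with Ndufaf1, differed by 0.12 in males and -0.28 in females (limma adjusted p = 0.246), and Timmdc1, another membrane arm factor, by -0.12 and -0.31 (limma adjusted p = 0.224 in females). Aifm1 was lower in male GPER KO arrays by -0.20 with no overlap (limma adjusted p = 0.245), and differed by -0.01 in females. Dmac1 differed by 0.18 in males and -0.12 in females, 0.31 apart (limma adjusted p = 0.426).

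The subunits of complexes II to V, the rest of the respiratory chain and ATP synthase, were also mostly below intact. Of 39 measured, 30 were below intact in males (median -0.030) and 35 in females (median -0.055), and 28 were below in both, or 71.8%. As for the complex I subunits, their mean signal did not overlap in females, at 11.40 to 11.44 in GPER KO and 11.45 to 11.53 in intact mice. In males it overlapped. Lower without overlap were 8 of 39 in females, against 3.73% of all genes, and 4 of 39 in males, against 1.97%. Sdhc, a membrane anchor of complex II, was the one called in the average over the sexes, at -0.17 (SE 0.03, limma adjusted p = 0.0118). The Nduf genes that are not complex I parts were not called. Ndufa4, a subunit of complex IV, differed by -0.040 in males and -0.035 in females (95% intervals -0.14 to 0.06 and -0.13 to 0.06), and Ndufa4l2, its paralog that hypoxia induces, by 0.042 and 0.098 (limma adjusted p = 0.955 and 0.826). Without 421 and 422 the female values were 0.002 for Ndufa4 and 0.23 for Ndufa4l2. The 95% interval of Ndufa4l2 over all arrays was -0.26 to 0.34 in males and -0.20 to 0.40 in females. Its signal lay at the 69.5th percentile with a within-group SD of 0.224, so its values are imprecise.

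Between the sexes within a genotype, 0 of 42 genes were called. Male intact mice were compared with female intact mice, where 0.579% of all genes were called, and male GPER KO with female GPER KO mice, where 0.0702% were. The smallest adjusted p in intact mice was that of Ndufaf8, with 8.36, 8.51, 8.50 and 8.61 in male intact and 8.76, 8.89, 8.82 and 8.68 in female intact mice. The groups did not overlap, and the difference was -0.29 (SE 0.08, limma adjusted p = 0.0789). Without female intact mouse 425, it was -0.33 and was called (adjusted p = 0.0470), and without 421 and 422 it was -0.23 (adjusted p = 0.479). Ndufa2 and Ndufa6 also did not overlap, at -0.18 and -0.19, making 3 of 42 genes lower in male intact mice without overlap against 5.39% of all genes, and 0 of 42 were higher without overlap, against 3.05%. Ndufaf1 was higher in male intact mice by 0.14 (limma adjusted p = 0.266) and Ndufa9, a subunit near the ubiquinone site, by 0.081 (limma adjusted p = 0.462). In GPER KO mice Ndufaf8 differed by -0.051. There Ndufa5, at -0.17 (limma adjusted p = 0.294), and Ndufs4, at -0.12, were lower in males without overlap, 2 of 42 genes against 2.02% of all genes, and Ndufb5 was higher without overlap, at 0.063, 1 of 42 genes against 4.37%. Ndufaf6 was at 0.20 (limma adjusted p = 0.418) and Ndufv3 at 0.10 (limma adjusted p = 0.462). In male GPER KO mice 24 of 42 genes were higher than in female GPER KO mice, as were 9553 of all 17097 genes. In male intact mice 29 of 42 were lower than in female intact mice (69%), as were 57.8% of all genes. The intact and GPER KO values of these sex comparisons share no arrays, but each shares its arrays with the genotype comparisons above.

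Promoters were read for 36 of the 42 genes as the 250 bases before an annotated start (RefSeq, GRCm38.p6). For some genes this start lies inside the span of the gene. On both strands, 3 motifs tied to respiratory chain genes were searched. A gene with several starts was counted once, if any of its promoters held the motif. The NRF1 core, GCATGCGC, was in 4 of 36 (11.1%) against 2.56% of 27025 genes read in the same way. The core motif of the estrogen-related receptors, AAGGTCA, was in 2 of 36 (5.56%) against 4.7%, and the site of the ETS factor GABPA, CCGGAAG, in 4 of 36 (11.1%) against 7.83%. No overlap between different motifs occurred, since no gene held more than 1 of the 3. The NRF1 core stood in Ndufa6, Ndufa8, Ndufa11 and Ndufaf4. The first 3 differed by 0.11, 0.082 and 0.062 in males and -0.052, -0.065 and 0.010 in females (0.068 for Ndufa11 without 421 and 422), and Ndufaf4 by -0.15 and 0.042, so the genes with that motif did not share a direction. A match is a string of letters and not a shown binding site. The promoters below are those of the gene with a called probe set, of the subunit with the smallest p in females, and of the 2 subunits with the smallest p among those above intact in males. They read 5′ to 3′, with matches in capitals.
Ndufs4 (chr13:114388095-114388344, minus strand): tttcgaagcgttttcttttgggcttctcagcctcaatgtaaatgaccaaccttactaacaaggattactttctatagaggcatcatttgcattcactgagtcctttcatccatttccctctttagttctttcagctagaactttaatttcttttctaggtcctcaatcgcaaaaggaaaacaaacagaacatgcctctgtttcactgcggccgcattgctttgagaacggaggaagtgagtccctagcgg
Ndufb2 (chr6:39592315-39592564, plus strand): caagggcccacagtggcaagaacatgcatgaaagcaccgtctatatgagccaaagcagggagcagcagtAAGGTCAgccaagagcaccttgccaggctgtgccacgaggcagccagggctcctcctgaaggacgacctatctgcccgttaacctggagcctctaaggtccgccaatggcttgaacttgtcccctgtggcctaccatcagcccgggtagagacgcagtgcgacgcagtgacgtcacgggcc
Ndufa6 (chr15:82354292-82354541, minus strand): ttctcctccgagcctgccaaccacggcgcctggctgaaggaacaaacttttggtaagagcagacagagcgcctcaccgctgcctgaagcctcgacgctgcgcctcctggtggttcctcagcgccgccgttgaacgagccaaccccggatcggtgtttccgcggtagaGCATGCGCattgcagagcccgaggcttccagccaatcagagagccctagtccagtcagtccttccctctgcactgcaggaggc
Ndufa8 (chr2:36049339-36049588, minus strand): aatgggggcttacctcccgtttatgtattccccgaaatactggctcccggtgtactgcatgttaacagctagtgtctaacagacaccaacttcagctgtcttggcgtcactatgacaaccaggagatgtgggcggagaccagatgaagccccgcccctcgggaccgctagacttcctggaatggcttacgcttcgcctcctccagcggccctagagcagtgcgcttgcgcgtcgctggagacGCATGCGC
The Ndufs4 promoter held none of the 3 motifs, that of Ndufb2 held the estrogen-related receptor motif, and those of Ndufa6 and Ndufa8 held the NRF1 core, in Ndufa8 as the last bases before the gene start.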

How the data were processed

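RNA from 16 cardiomyocyte preparations, 4 per group, was measured on Affymetrix GeneAtlas MG-430 PM arrays. The authors deposited log2 expression values per probe set, and RMA and Partek are named in the submitters' processing notes, their versions are not. RMA corrects background, equalises the distribution of values across arrays and summarises probes, so a shift shared by most genes would not be seen. Array strips and scan batches are not given in the sources used here.

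Of 45141 probe sets, 28898 were paired with 1 gene, 551 with several and 15692 with none, and 17097 genes were each represented by their brightest probe set on average. The model had 4 group means, fitted with limma 3.58.1 in R 4.3.3 with empirical Bayes, over all 16 arrays, and p-values were adjusted by Benjamini-Hochberg over all 17097 genes with a threshold of 0.05. Contrasts were GPER KO minus intact in males, in females and averaged, their difference, and male minus female within each genotype. No filter on low values was applied, and all 42 genes would have passed one. The number of arrays limits the precision. The script was tested on simulated data.

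The members and lists were chosen with earlier results of these data known. Named with values were, per genotype comparison and the difference between sexes, the 3 genes per direction with the smallest p, the 2 per direction in sex comparisons, all Ndufaf genes, Ndufa4, Ndufa4l2, and, per genotype comparison, up to 2 genes of each other list. Ndufa3, Ndufb11, Ndufs7, the remaining core subunits, Ndufb5, Ndufs5-ps and the other Ndufs4 probe sets were named after their values were seen. Alternatives were another probe set rule, renormalization, array weights, robust fits, a filter, single sexes and omitted arrays.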

Additional observations from a re-analysis of the deposited data

Results flagged for a closer look

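In 100 groups of 4 arrays examined for named genes, 6 had 1 array set far apart from the others, where chance sets apart about 1 in 20. Ndufs1 was 10.87 in female GPER KO mouse 427 and 10.82 in each of the others. Ndufs4, on its brightest probe set, was 9.76 in female GPER KO mouse 419 and 9.66 to 9.67 in the others. Ndufa4 was 11.73 in female GPER KO mouse 417 and 11.80 in the others. Ndufaf2 was 7.25 in female intact mouse 425 and 7.58 to 7.61 in the others, Ndufb11 was 11.78 in female intact mouse 418 and 11.84 to 11.85 in the others, and Ndufa4l2 was 4.02 in male intact mouse 430 and 4.64 to 4.72 in the others. The gaps for Ndufs1, Ndufs4, Ndufa4 and Ndufb11 were below 0.1 on the log2 scale.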

How the results depend on the processing

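No paired analysis was possible because each mouse has its own number and the groups share none. The count of called Nduf genes stayed at 0 under the alternatives tried, apart from 1 when every probe set was tested on its own in the average over both sexes (the second Ndufs4 probe set, an alternative that also tests more features) and 0 to 1 over single omitted arrays for male intact minus female intact (Ndufaf8 at -0.33 without female intact mouse 425). Over all alternatives, single omissions included, the median of the subunits lay between -0.055 and -0.016 in males and between -0.081 and -0.048 in females, and that of the assembly factors between 0.035 and 0.100 in males and between -0.199 and -0.092 in females, with no change of sign. The second Ndufs4 probe set, whose alternatives were chosen after seeing the data, is covered in the report.

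Of 65 values of named genes, 11 changed sign, none of them called, and the causes were not tested. In females, averaging probe sets gave -0.018 for Ndufa11 and -0.037 for Ndufa5, probe sets with no mark of several transcripts in their identifier gave -0.088 for Ndufa5 (and 0.040 for its difference between sexes), array weights gave -0.004 for Ndufa5, and leaving out 421 and 422 gave 0.002 for Ndufa4, -0.061 for Ndufa5, 0.013 for Ndufa6, 0.008 for Ndufaf2, -0.124 for Ndufaf4 and -0.081 for Ndufs1. Array weights gave -0.018 for Ndufa4l2 in males. Over single omitted arrays the female values ranged from -0.014 to 0.032 for Ndufa11, -0.032 to 0.040 for Ndufa5, -0.040 to 0.100 for Ndufaf4 and -0.021 to 0.065 for Ndufs1. The male values ranged from -0.122 to 0.113 for Ndufa4l2 and -0.013 to 0.100 for Ndufaf6, and the average over both sexes from -0.012 to 0.116 for Ndufa4l2. The male Ndufaf5 value lay between 0.054 and 0.196 over single omitted arrays. The third Ndufs4 probe set lay at the 9.11th percentile of signal, where a difference may not be measurable.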
